A study of Mus musculus with 6 samples.

Results

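Expression of 10 genes associated with activated fibroblasts and myofibroblasts (Lrrc15, Fap, Thy1, Postn, Acta2, Tagln, Cnn1, Cthrc1, Pdpn and Tgfbi) was followed in mouse gliomas. They were chosen by name, and every probe with one of these symbols in the platform annotation was taken, which gave 22 probes for 10 of the 19057 genes with a single symbol on the array. The choice was made with earlier results on HoxA5 against mCherry tumours known, so the members' levels and their differences between these groups are given as a description, without a test.

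Each of 6 Illumina mouse bead arrays held total RNA of tumour tissue, 2 from HoxA5 tumours and 4 from mCherry tumours, which are the control group. Both groups were gliomas made by RCAS/tva delivery: RCAS viruses are avian and infect only cells carrying the receptor tva. In both, adult mice carried the Ntva transgene, in which the nestin promoter drives tva in neural progenitors, and were either Ink4a/Arf+/- or Ink4a/Arf-/-, on a background mixed from several strains. The chicken fibroblast line DF1 carried the viruses, and cells producing PDGFb virus were mixed with cells producing HoxA5 virus or mCherry virus and placed in the right frontal cortex. The mice received no other treatment, and the labels do not say which Ink4a/Arf genotype each tumour had. They also do not say that each tumour came from a mouse of its own, so the spread behind every p-value is that between these tissue samples and may be technical in part. By Xist and Eif2s3y, HoxA5 tumour 1 was male and HoxA5 tumour 2 female, so these came from different mice. The mCherry tumours 1 and 2 were male and 3 and 4 female, and those of the same sex may share a mouse.

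Fibroblasts are the matrix-forming cells of connective tissue, and in the brain they lie in the meninges and around larger vessels. When activated by transforming growth factor beta, by wounding or by a tumour, they take on contractile actin filaments, and are then called myofibroblasts, and deposit collagen and matricellular proteins. Several of the markers used for this state are not restricted to it: Acta2, Tagln and Cnn1 are smooth muscle genes that serum response factor controls, Thy1 is abundant in neurons, and Pdpn is made by reactive astrocytes, glioma cells and lymphatic endothelium.

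Promoter windows of Lrrc15 and Acta2 are shown because these are the surface and the contractile member with which the profiles of other genes are compared further on. RefSeq's table (GRCm38.p6) held windows for 6 of the 10 genes (Lrrc15, Postn, Acta2, Cnn1, Pdpn and Tgfbi), from 250 bases before to 50 after the start. The Lrrc15 window is chr16:30283205-30283504 and the Acta2 window chr19:34255324-34255623, both on the minus strand. Capitals mark, on either strand, CATTCC (the motif of TEAD factors) and the CArG box of serum response factor with a single C or G in its A and T core. The 2 kinds of site do not overlap here.
Lrrc15: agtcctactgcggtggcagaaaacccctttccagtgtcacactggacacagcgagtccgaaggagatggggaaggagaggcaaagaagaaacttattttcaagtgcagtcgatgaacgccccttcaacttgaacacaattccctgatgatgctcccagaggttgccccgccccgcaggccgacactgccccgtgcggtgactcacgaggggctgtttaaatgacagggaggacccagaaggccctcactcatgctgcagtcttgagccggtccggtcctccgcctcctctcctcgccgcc
Acta2: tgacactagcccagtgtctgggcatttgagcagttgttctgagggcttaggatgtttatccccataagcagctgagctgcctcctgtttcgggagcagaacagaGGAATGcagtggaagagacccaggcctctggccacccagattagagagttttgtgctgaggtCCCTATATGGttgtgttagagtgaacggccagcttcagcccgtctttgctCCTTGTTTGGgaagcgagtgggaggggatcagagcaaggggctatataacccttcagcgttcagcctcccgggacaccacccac
In the Acta2 window, CATTCC lies on the opposite strand 146 bases before the start, and 2 CArG boxes with a core change begin 84 and 34 bases before it. None of the other 5 genes with a window had any of these letters in it, and none of the 6 had the unchanged CArG box. Among 32851 promoter windows of the same length, 14.7% held CATTCC, 8.5% a CArG box with a core change (0.679% at 2 or more places) and 1.63% the unchanged box. A match describes letters and not a bound site.

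The arrays had median intensities of 153.1 and 166.8 for HoxA5 tumours and 136.1 to 156.9 for mCherry tumours, and 19950 to 21904 of 45281 probes per array were above background (detection p-value under 0.05). The Hoxa5 probe was above background on 0 of 6 arrays, and since it is not known here whether it lies in the delivered part of the transcript, it does not check the labels. By Xist and Eif2s3y, each group held both sexes. Of listed neuron, endothelial, and macrophage and microglia markers, 11 of 12, 9 of 10 and 11 of 12 were measured. Levels below are background-corrected, quantile-normalized log2 intensities of a gene's brightest probe, and a level of one gene's probe cannot be set against that of another. A gene counted as measured when a probe was above background on at least 2 arrays. Of the 10 members 8 met this, while Postn, a matricellular protein that binds collagen and integrins, and Cnn1, the calponin of smooth muscle, had no probe above background on any array (3 probes and 1 probe). Of the 22 member probes 10 were above background on no array, among them second probes of Fap, Cthrc1, Thy1 and Tagln and 2 of the 6 Acta2 probes.

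Lrrc15, a leucine-rich repeat membrane protein of activated fibroblasts in tumours, was at 9.35 and 6.94 in HoxA5 tumours 1 and 2, against 4.48, 4.48, 4.71 and 4.85 in mCherry tumours 1 to 4 (probe ILMN_2756421). It was above background in both HoxA5 tumours and in no mCherry tumour, and so entered the fit only through the HoxA5 arrays. In deposited intensities it read 838.2 and 269.5 in HoxA5 tumours against 129.6 to 138.7 in mCherry tumours. The HoxA5 mean was 8.14 ± 1.71 (SD, n = 2) and the mCherry mean 4.63 ± 0.184 (SD, n = 4), or at least 8.16-fold higher in HoxA5 tumours on the background-corrected scale. The difference was 3.51 on that log2 scale, 1.64 without background correction and 1.69 in the authors' processed values, so the size of the bound depends on the background step. That bound sets the HoxA5 mean against the mean, over mCherry arrays, of the higher of the array's lowest detected signal and the probe's own. The groups did not overlap, and the HoxA5 tumours stood 2.41 apart on the log2 scale, 5.32-fold.

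Fap, a membrane serine protease, was at 7.98 and 6.05 in HoxA5 tumours, against 5.63, 6.40, 5.76 and 6.65 in mCherry tumours (ILMN_1238305). Only HoxA5 tumour 1 was high, and HoxA5 tumour 2 lay below mCherry tumours 2 and 4. The difference of means was 0.90 (SE 0.542), of which HoxA5 tumour 1 gave 1.86 over the mCherry mean and HoxA5 tumour 2 gave -0.062. Pdpn, the mucin-like membrane protein podoplanin, was at 11.60 and 11.10 in HoxA5 tumours, against 11.04, 10.87, 11.15 and 11.40 in mCherry tumours (ILMN_2654754). These values overlapped, with a difference of 0.23 (SE 0.249), the smallest of the 8 measured members. Without HoxA5 tumour 1, the differences of Fap and Pdpn were -0.063 and -0.021.

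Thy1, a small GPI-anchored glycoprotein, was the measured member with the lower HoxA5 mean. It was at 12.98 and 11.18 in HoxA5 tumours, against 13.41, 13.41, 13.66 and 12.39 in mCherry tumours (ILMN_2644350). HoxA5 tumour 2 was lowest of all, and HoxA5 tumour 1 lay above mCherry tumour 4, so the groups overlapped. The difference was -1.14 (SE 0.485), and it was -2.04 without HoxA5 tumour 1 and -0.23 without HoxA5 tumour 2. The neuron markers ran in the same tumours: 10 of 11 measured genes fell in limma's fit, where 4.64% of 12242 genes were called lower, and their summed normalized intensity was 11180 and 5489 in HoxA5 tumours against 30761 to 94840 in mCherry tumours. Rbfox3, the neuronal nuclear antigen, was at 9.56 and 8.53 in HoxA5 tumours against 11.84 to 13.38 in mCherry tumours (limma adjusted p = 0.00571). The part of neuron content in the Thy1 difference was not tested, and in bulk tissue fewer cells of a type and less RNA per cell cannot be told apart. Without HoxA5 tumour 1 or 2, the median difference of the neuron list was -3.44 and -2.52, beside -3.29 with both. In every fit without a HoxA5 tumour, 1 HoxA5 array is left, which is assumed to vary like the mCherry arrays.

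**Figure D1:**
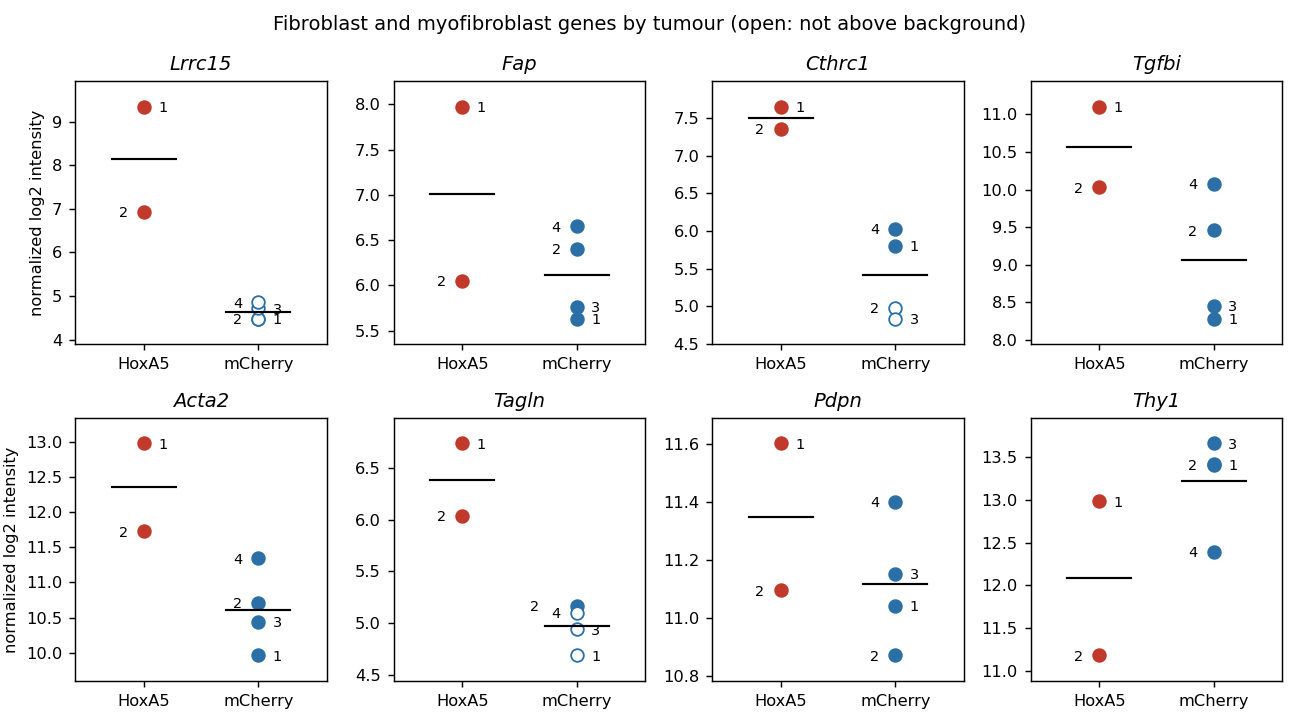
Normalized log2 intensity (vertical axis, own scale per gene) of the 8 measured members in HoxA5 tumours 1 and 2 (red) and mCherry tumours 1 to 4 (blue); bars are group means and open circles values not above background. The groups are apart for Lrrc15, Cthrc1, Acta2 and Tagln and overlap for Fap, Tgfbi, Pdpn and Thy1, and HoxA5 tumour 1 lies above HoxA5 tumour 2 in all 8 panels.

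Among matrix proteins, Cthrc1, a secreted protein with a short collagen repeat made by fibroblasts of injured tissue, was at 7.66 and 7.36 in HoxA5 tumours, against 5.81, 4.98, 4.84 and 6.03 in mCherry tumours (ILMN_1225073). It was above background in both HoxA5 tumours and in mCherry tumours 1 and 4 (2 of 4). The difference was 2.09 (SE 0.413, 4.27-fold), and the HoxA5 tumours differed by 0.30, less than the other measured members. Cthrc1 is thus the member for which HoxA5 tumour 2 stood nearly as far from the mCherry mean (1.95) as HoxA5 tumour 1 (2.24).

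Tgfbi, a fasciclin-domain matrix protein named for its induction by transforming growth factor beta and also made by macrophages, was at 11.10 and 10.03 in HoxA5 tumours, against 8.28, 9.46, 8.46 and 10.08 in mCherry tumours (ILMN_2834379). HoxA5 tumour 2 and mCherry tumour 4 stood within 0.05 of each other, so the groups overlapped. The difference was 1.50 (SE 0.522). A second probe gave 8.24 and 7.16 in HoxA5 tumours against 5.46, 6.41, 6.00 and 6.88 in mCherry tumours. With that probe the groups did not overlap and the difference was 1.51, so the probes had like differences and unlike overlap.

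Of the contractile genes, Acta2, the smooth muscle actin that defines myofibroblasts and vascular smooth muscle, was at 12.98 and 11.73 in HoxA5 tumours, against 9.96, 10.71, 10.44 and 11.34 in mCherry tumours (ILMN_2693895). Both HoxA5 tumours were above all mCherry tumours, HoxA5 tumour 2 by 0.39 over mCherry tumour 4. The HoxA5 mean was 12.36 ± 0.888 (SD, n = 2) and the mCherry mean 10.61 ± 0.576 (SD, n = 4), which differ by 1.74 (SE 0.425, 3.35-fold). The other 3 detected Acta2 probes gave differences of 2.01, 1.58 and 1.35, also without overlap. Tagln, the actin-binding protein transgelin, was at 6.74 and 6.04 in HoxA5 tumours, against 4.69, 5.17, 4.94 and 5.10 in mCherry tumours (ILMN_1243652). It was above background in both HoxA5 tumours and in mCherry tumour 2 only (1 of 4). Its difference was 1.42 (SE 0.311), without overlap.

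**Figure D2:**
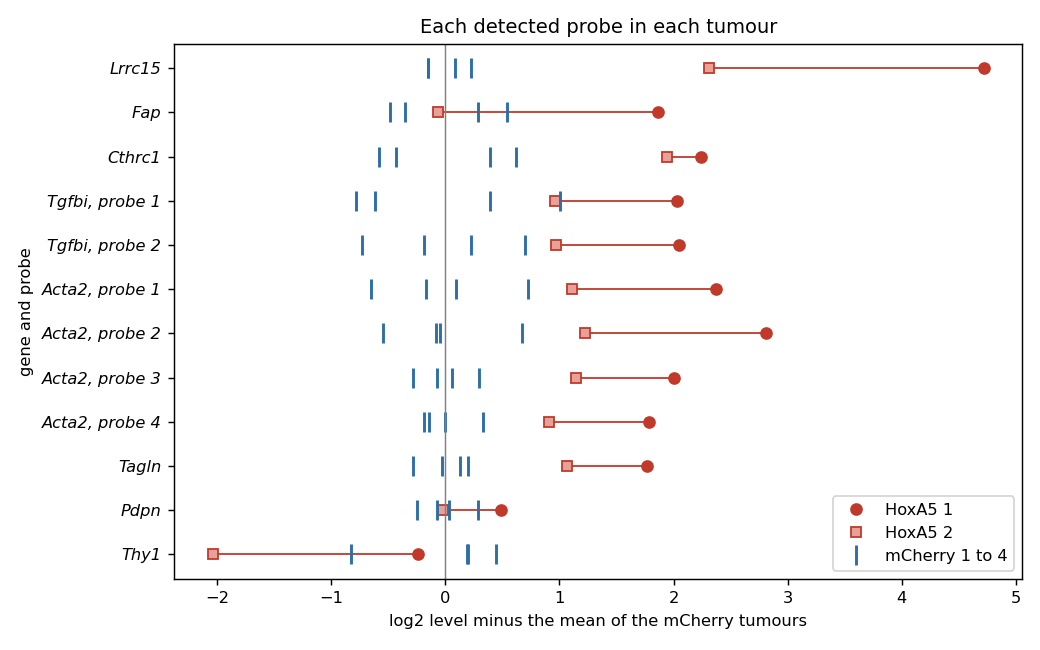
Level of each of the 12 detected member probes minus its mCherry mean (horizontal axis, log2), for HoxA5 tumour 1 (circles), HoxA5 tumour 2 (squares) and mCherry tumours 1 to 4 (ticks). All 4 Acta2 probes have both HoxA5 tumours to the right of the mCherry tumours, while the brighter Tgfbi probe (probe 1) has HoxA5 tumour 2 beside mCherry tumour 4.

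Set side by side, 7 of the 8 measured members had the higher mean in HoxA5 tumours. Their median difference was 1.46, also with Lrrc15 at its bound, beside 0.072 over all 12242 genes tested. In limma's fit across all genes, 4 of them (Lrrc15, Cthrc1, Acta2 and Tagln) were among the 148 genes called higher, 1.21% of those tested, and 0 among the 568 called lower. The same 4 had both HoxA5 tumours above all mCherry tumours, as did 18.3% of all genes, and 0 had both below, as did 17.2% (35.5% on either side). Since the members were picked on this contrast, nothing is read from these counts. When arrays were brought to a common median and not to common quantiles, 265 genes were called higher and 437 lower, and the median difference over all genes moved to 0.20. The count of members called higher was 0 of 7 tested without HoxA5 tumour 1 and also without HoxA5 tumour 2, where 3 and 0 genes in all were called higher, 1 HoxA5 array was left and Lrrc15 did not meet the detection filter. The Cthrc1 difference was 1.94 and 2.22 in those fits. The count was 1 (Lrrc15) without mCherry tumour 1 and also without mCherry tumour 2, and 2 (Lrrc15 and Cthrc1) without mCherry tumour 3. In all, 8, 18 and 96 genes were called higher in those fits. Without mCherry tumour 4 the member count was 5, Tgfbi being added, and Thy1 was called lower. That fit called 1038 genes higher in all and 1370 lower. With array weights the member count was also 5, Tgfbi among them, where 642 genes in all were called higher. The count was 1 (Lrrc15) with sex as a covariate, and 3 with the replicate number as a block, where Tagln was not called. In all, 31 and 236 genes were called higher with these settings. For the members, the count was also 3, without Acta2, when background correction, the detection filter or the intensity trend was left out and in the authors' processed values. With detection required on all 6 arrays it was 1 of 5 tested, Acta2.

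The HoxA5 tumours differed from each other over the measured members. All 8 were higher in HoxA5 tumour 1 than in HoxA5 tumour 2, beside 51.2% of all genes, and 5 (Lrrc15, Fap, Thy1, Acta2 and Tgfbi) were at least 2-fold higher there, beside 4.47% of all genes. The gaps ran from 0.30 for Cthrc1 to 2.41 for Lrrc15 with a median of 1.16, where the median gap over all genes was 0.018 (0.348 without regard to sign). These are single tumours, so the gaps carry no replicate error. The members were chosen with earlier results of these data known, so nothing is read from the counts of members. Against the mCherry mean, 6 members were at least 2-fold higher in HoxA5 tumour 1 (9.83% of all genes) and 4 in HoxA5 tumour 2 (8.12% of all genes). The 4 in HoxA5 tumour 2 were Lrrc15, Cthrc1, Acta2 and Tagln. Thy1, with the lower HoxA5 mean, also shared the higher level in HoxA5 tumour 1, as did all 11 measured neuron markers. HoxA5 tumour 1 was from a male and HoxA5 tumour 2 from a female by Xist and Eif2s3y, so sex and tumour cannot be told apart within this group.

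**Figure D3:**
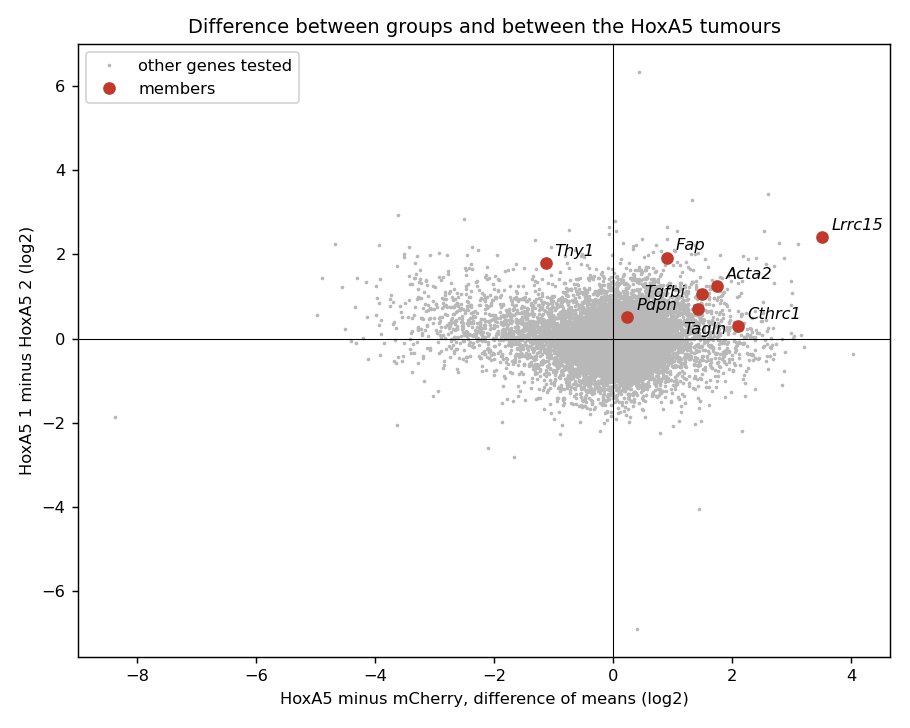
Difference between group means (horizontal axis, HoxA5 minus mCherry, log2) against the gap between the HoxA5 tumours (vertical axis, HoxA5 1 minus HoxA5 2, log2) for the 8 measured members (red) and the other genes tested (grey). All members lie above the horizontal line, Cthrc1 close to it and Lrrc15 farthest from it, and Thy1 alone lies left of the vertical line.

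Among the mCherry tumours, mCherry tumour 4 had the highest level of 6 of the 8 measured members (Lrrc15, Fap, Acta2, Cthrc1, Pdpn and Tgfbi), beside 32.2% of all genes, and the lowest level of Thy1. For Tgfbi it was 1.35 above the mean of the other mCherry tumours, for Acta2 0.97, for Cthrc1 0.82 and for Fap 0.72. Lrrc15 was not above background there. Neuron markers were also lowest in mCherry tumour 4 among the mCherry tumours, at a summed intensity of 30761 against 68450 to 94840, and their part in this order was not tested.

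By the shape of their profile over the 6 arrays, Acta2 and Tgfbi were the most alike of the members. The root mean square difference between their mean-centred log2 levels was 0.28, followed by 0.37 for Acta2 and Tagln. Lrrc15 and Thy1 were farthest apart, at 2.26. Measured genes outside the set were also compared, leaving out predicted genes with Gm, Rik or LOC symbols. Nearest to Acta2 were Thbs2 (0.13), a matricellular thrombospondin, Afap1 (0.15), an actin filament-associated adaptor, and Sh3pxd2a (0.17), a scaffold of invasive podosomes. Nkd2 (0.18) and Col5a2 (0.19), a chain of type V collagen, followed. Thbs2 was at 10.59 and 9.50 in HoxA5 tumours against 7.41, 8.39, 8.23 and 8.81 in mCherry tumours. Nearest to Lrrc15 were Col1a2 (0.48), a chain of type I collagen, Slco2a1 (0.49), a prostaglandin transporter, Actg2 (0.56), the enteric smooth muscle actin, Saa3 (0.56), an acute phase protein, and Mmp3 (0.61), the metalloproteinase stromelysin. The distance also grows with the size of a gene's changes, so the values for Lrrc15 and Acta2 are not on one footing.

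Of the 16 measured genes of a list of matrix genes of activated fibroblasts (members left out), 5 rose and 0 fell in HoxA5 tumours, beside 1.21% of all genes called higher. Their median difference was 1.73, also when the 2 genes above background in only 1 group were set at their bounds. The list was chosen with earlier results of these data known, so nothing is read from this count. Lox, the lysyl oxidase that crosslinks collagen, was at 8.58 and 7.04 in HoxA5 tumours against 4.94, 5.69, 5.48 and 5.37 in mCherry tumours, and rose 5.41-fold (limma adjusted p = 0.0179). The type I collagen chains Col1a1 and Col1a2 rose 6.93-fold and 5.79-fold (limma adjusted p = 0.0431 and 0.0454), and Col5a2 3.45-fold (adjusted p = 0.0485). Like Lrrc15, the type I chains were far higher in HoxA5 tumour 1 than in HoxA5 tumour 2, by 2.27 for Col1a1 and 2.56 for Col1a2. Col11a1, a minor fibrillar collagen, was not above background in any mCherry tumour, so it met the detection filter only through the HoxA5 arrays, where it is high, and nothing is read from its call. It was at least 2.37-fold higher in HoxA5 tumours (limma adjusted p = 0.0485) and ran the other way between the HoxA5 tumours, at 5.80 in HoxA5 tumour 1 and 6.93 in HoxA5 tumour 2. The number that rose was 0 without HoxA5 tumour 1, HoxA5 tumour 2 or mCherry tumour 1, where the median difference was 1.33, 2.13 and 1.53. It was 1 (Lox) without mCherry tumour 2, 2 (Lox and Tnc) without mCherry tumour 3 and 10 without mCherry tumour 4. Those fits called 18, 96 and 1038 genes higher in all. The matrix count was 1 (Lox) with sex as a covariate, where 31 genes in all were called higher. It was also 1 (Lox) without a detection filter or without an intensity trend, and 2 (Col1a1 and Col1a2) with detection on all 6 arrays. It was 3 (Col1a1, Col1a2 and Lox) when probes of a gene were averaged. It was 3 in the authors' values and when background was not corrected, of which Lox was among the 5 above and Col3a1 and Tnc were not. With the replicate number as a block it was 7, without Col1a1, Col5a2 and Col11a1. It was 8 with median scaling and 10 with array weights, where 265 and 642 genes in all were called higher.

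None of the 16 measured contractile and smooth muscle genes outside the set passed in limma, and their median difference was 1.14. Of them 11 had an unadjusted limma p under 0.05, as did 3014 of all 12242 genes tested. Smtn, the actin-binding smoothelin of contractile smooth muscle, was at 10.62 and 9.70 in HoxA5 tumours against 7.85, 8.94, 7.65 and 8.97 in mCherry tumours (adjusted p = 0.0531). Actg2 was at 8.998 and 5.56 in HoxA5 tumours against 4.55 to 4.90 in mCherry tumours, with the higher level by 3.44 in HoxA5 tumour 1. On the background-corrected scale Actg2 was at least 4.48-fold higher, without passing (limma adjusted p = 0.0673). It was above background in no mCherry tumour and entered the fit only through the HoxA5 arrays, so nothing is read from its p-value. Des, the intermediate filament protein desmin, was at 8.72 and 7.68 in HoxA5 tumours against 5.42 to 7.49 in mCherry tumours (adjusted p = 0.0853). The number of contractile genes that rose was 9 without mCherry tumour 4 and 6 with array weights, where 1038 and 642 genes in all were called higher. It was 1 with median scaling (Smtn) and 1 with the replicate number as a block (Tagln2). In the other alternatives that kept both HoxA5 tumours it was 0.

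**Figure D4:**
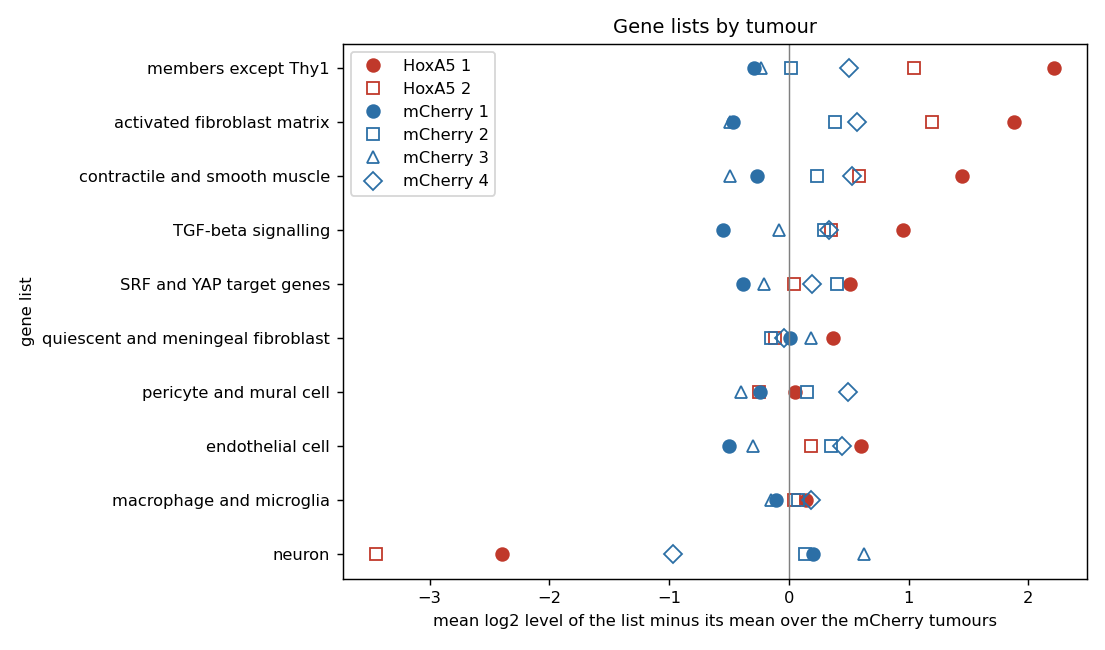
Mean log2 level of the measured genes of each list, minus its mean over the mCherry tumours (horizontal axis), for HoxA5 tumours 1 and 2 (red) and mCherry tumours 1 to 4 (blue). The measured members except Thy1 and the matrix list have both HoxA5 tumours to the right of the mCherry tumours, for the contractile list HoxA5 tumour 2 lies beside mCherry tumour 4, and the neuron list runs the other way.

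For transforming growth factor beta signalling, 0 of 15 measured genes passed in limma and the median difference was 0.61. An unadjusted limma p under 0.05 was found for 5 of them, beside 3014 of all 12242 genes tested. Ltbp3, which binds the latent ligand, was at 10.83 and 10.15 in HoxA5 tumours against 8.46 to 9.43 in mCherry tumours (limma adjusted p = 0.0530). Pmepa1, a feedback inhibitor that the pathway induces, was at 11.33 and 9.84 in HoxA5 tumours against 7.58, 9.52, 8.21 and 9.32 in mCherry tumours (limma adjusted p = 0.0843). Ccn2, a matricellular target, was at 12.75 and 12.15 in HoxA5 tumours against 10.89 to 11.95 in mCherry tumours (adjusted p = 0.143). Tgfbr3, the coreceptor betaglycan, had the lower HoxA5 levels, 6.78 and 5.87 in HoxA5 tumours against 6.85 to 8.52 in mCherry tumours (adjusted p = 0.183). Of 9 measured genes acting with or downstream of serum response factor and the YAP coactivator, 0 passed in limma and the median was 0.17. An unadjusted p under 0.05 was found for 3 of them, again beside 3014 of 12242 genes. The 3 were the coactivator Wwtr1 and its partner Tead1, with differences of 1.03 and 1.01, and the LIM protein Fhl2, with a difference of -0.84. Without mCherry tumour 4, 2 genes of the first list (Ltbp3 and Pmepa1) and 1 of the second (Wwtr1) rose, where 1038 genes in all were called higher. The same genes rose with array weights (642 genes in all), and Ltbp3 with median scaling (265 in all).

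In the list of resting and meningeal fibroblast genes, 1 of 14 measured genes rose and 1 fell, with a median difference of 0.41. Dcn, a collagen-binding proteoglycan, was at 12.61 and 11.82 in HoxA5 tumours against 9.94, 10.33, 10.45 and 10.50 in mCherry tumours, and rose 3.76-fold (limma adjusted p = 0.00948). Igf2, a growth factor of meninges and choroid plexus, was at 9.07 and 7.96 in HoxA5 tumours against 11.76, 11.30, 12.92 and 10.81 in mCherry tumours, and fell by 3.18 on the log2 scale (adjusted p = 0.0125). Dcn was not called without HoxA5 tumour 1 or 2, and Igf2 was not called without HoxA5 tumour 2 or mCherry tumour 1.

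Pericytes and vascular smooth muscle also express Acta2 and Tagln. Of 10 measured pericyte and mural genes 0 rose and 1 fell, the median difference was -0.12, and their summed intensity was 3633 and 3335 in HoxA5 tumours against 4108 to 4752 in mCherry tumours. Vtn, vitronectin, which brain pericytes express, was at 9.33 and 8.38 in HoxA5 tumours against 10.18 to 10.67 in mCherry tumours, and fell by 1.598 on the log2 scale (limma adjusted p = 0.0223). Rgs5, a regulator of G protein signalling in pericytes, was at 6.82 and 6.69 in HoxA5 tumours against 7.73 to 8.21 in mCherry tumours (adjusted p = 0.0599). Anpep of the same list ran the other way, at 6.72 and 5.59 in HoxA5 tumours against 4.63 to 5.12 in mCherry tumours (limma adjusted p = 0.0719). It was above background in only 1 mCherry tumour. Of the 10 genes, 3 had the higher mean in HoxA5 tumours. While the sum was below the mCherry range in both HoxA5 tumours, the list's mean log2 level was within it, at 7.86 and 7.57 in HoxA5 tumours against 7.42 to 8.31 in mCherry tumours. Smooth muscle genes such as Smtn, Des and Actg2 were counted in the contractile list (median difference 1.14) and not in this one. The part of mural cells in the Acta2 and Tagln levels was not tested. Vtn was not called without HoxA5 tumour 2, mCherry tumour 1 or mCherry tumour 2, and without mCherry tumour 4 the list's median was 0.15, with 1 gene (Anpep) called higher and 2 (Rgs5 and Vtn) lower. The fit without mCherry tumour 4 called 1038 genes higher in all and 1370 lower. Rgs5 was also called lower with detection on all 6 arrays, when probes of a gene were averaged, without an intensity trend and with array weights.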

How the data were processed

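The authors deposited linear intensities that they name as non-normalized, and beside each a detection p-value, per the file headers. They also deposited processed log2 values, for which the submitters' processing notes name limma without a version or step, so the background step is unknown. The labels describe no array processing before these files.

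limma 3.58.1 (R 4.3.3) was run on the intensities: its neqc function corrects background, equalizes quantiles and takes log2 (offset 16, which understates folds of dim probes). Of 45281 probes, 34885 had 1 symbol, 18 several and 10378 none. The symbols were looked up in the GRCm38.p6 gene table, used for names only. Probes above background (p under 0.05) on at least 2 arrays were kept, and the brightest, by mean over all arrays, stood for each of 12242 genes. The groups were compared with lmFit and eBayes with an intensity trend over the 6 arrays, and a gene was called where its p, adjusted by Benjamini and Hochberg, was under 0.05. The code was tested on simulated data. No depth or counting interval applies to arrays, and the number of arrays limits the precision.

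The members and the 9 lists were chosen with earlier results of these data known, so their counts of genes called are a description. Genes named outside the members are up to 4 per list by smallest p, and the 5 nearest in profile to Lrrc15 and to Acta2. Predicted genes with Gm, Rik or LOC symbols were left out of the nearest. Not every gene this rule takes is described. Col11a1, the fifth called gene of its list, and Tnc and others named by a setting's count were named after their values were seen. Alternatives were no background correction, median scaling, the authors' log2 values, 2 other detection filters, the mean of a gene's probes, no trend, sex as a covariate, a block on replicate number, array weights, and leaving out each array.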

Additional observations from a re-analysis of the deposited data

How the results depend on the processing

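Of the differences of single members under the alternatives, 110 moved by less than the SD within groups, 11 moved by more and 2 changed sign, Fap (-0.063) and Pdpn (-0.021), both without HoxA5 replicate 1, and without HoxA5 replicate 2 they were at 1.84 and 0.485. Lrrc15, Cthrc1 and Tagln, the dim members, were at 1.64, 0.88 and 0.45 without background correction, against 3.51, 2.09 and 1.42 with it, while Acta2 was at 1.66 and Tgfbi at 1.29. In the authors' values the 3 were at 1.69, 0.91 and 0.48. The cause was not tested. The member median was 0.67 without background correction, 0.69 in the authors' values, and 0.97 to 1.84 with an array left out. Lrrc15 did not meet the detection filter without either HoxA5 array. Over all genes, called higher were 265 with median scaling, 95 without a detection filter, 642 with array weights, 236 with the replicate block and 31 with sex as a covariate. Called lower were 370 without background correction, 362 in the authors' values, 1104 with array weights and 307 with sex. With an array left out, 0 to 1038 were higher and 2 to 1370 lower. Of list genes, 6 were called higher and 12 lower. The higher count was 11 with median scaling, 3 with detection on all 6 arrays, 2 without a filter, without a trend or with sex, 22 with array weights, and 0 to 26 with an array left out, where the lower count was 0 to 13. Nothing in the labels says that same-numbered tumours are paired. Deviations from the group means correlated across genes at -0.36 for HoxA5 1 and mCherry 1 and -0.24 for HoxA5 2 and mCherry 2. The crossed pairs gave 0.24 (HoxA5 1 and mCherry 2) and 0.36 (HoxA5 2 and mCherry 1). With 2 HoxA5 arrays the deviations of 1 mirror those of the other, so these values cannot decide on a pairing. With the replicate number as a block 236 genes were higher and 669 lower and the member median was 1.58. Signal near background limits Lrrc15, Cthrc1 and Tagln in mCherry tumours.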

Other observations

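Endothelial and macrophage markers were also listed. Over all 12242 genes tested, 3014 had an unadjusted limma p under 0.05. Of 9 measured endothelial genes 0 passed in limma, 1 had an unadjusted p under 0.05 and the median difference was 0.49. Emcn, the sialomucin endomucin of venous and capillary endothelium, was at 10.26 and 10.36 in HoxA5 tumours against 8.82, 9.44, 8.60 and 10.10 in mCherry tumours (adjusted p = 0.144). It was called higher without mCherry tumour 4, where 1038 genes in all were called higher. Flt1, a receptor for vascular endothelial growth factor, was at 11.73 and 10.57 in HoxA5 tumours against 9.27 to 10.80 in mCherry tumours (adjusted p = 0.272). Of 11 measured macrophage and microglia genes 0 passed in limma and 0 had an unadjusted p under 0.05, with a median difference of 0.20. Their summed intensity was 12122 and 11245 in HoxA5 tumours against 8452 to 11612 in mCherry tumours. Whether either cell type contributes to the levels of Tgfbi or Acta2 was not tested.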
